A study of Mus musculus with 12 samples.

Results

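The 7 genes described here encode the cyclin-dependent kinase inhibitors of the mouse: Cdkn1a (p21), Cdkn1b (p27) and Cdkn1c (p57) of the Cip/Kip family, and Cdkn2a, Cdkn2b, Cdkn2c and Cdkn2d of the Ink4 family. They were chosen by symbol from the 24422 features of each count table, and 7 of 7 were among the 16713 genes with enough counts to be tested. RNA was sequenced from stromal cells of mouse adipose tissue (the stromal vascular fraction, that is, the tissue's cells other than mature adipocytes), in 12 libraries that form 4 groups of 3. All 12 libraries came from mice labelled as heterozygous at p21, with 1 wild-type allele and 1 allele that carries a cassette at Cdkn1a. The genotype p21+/mcherry was sampled under both diets, with replicates 1, 2 and 3 on standard diet (SD mCherry) and replicates 15, 17 and 20 on high-fat diet (HFD mCherry). The genotype p21+/mcherry-Tert, in which the p21 promoter drives telomerase reverse transcriptase, was sampled on a high-fat diet (HFD Tert, replicates 25, 26 and 27). The genotype p21+/mcherry-TertCi, which carries a catalytically inactive Tert at the same locus, was also sampled on a high-fat diet (HFD TertCi, replicates 30, 31 and 33). The series' text writes the high-fat diet control as p21+/-, while the sample labels name mCherry, and the labels were followed. Cdkn1a is therefore both one of the inhibitors measured and the locus that carries every cassette. Reads of its wild-type allele and of its cassette allele were not told apart.

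Cell division is driven by cyclins bound to their kinases (CDKs), which phosphorylate the retinoblastoma protein and so release E2F transcription factors. Cip/Kip proteins bind cyclin and kinase together and act on several CDK complexes, while Ink4 proteins bind Cdk4 and Cdk6 and keep D-type cyclins away. Transcription of Cdkn1a is raised by p53, and Cdkn1a and Cdkn2a are widely used as markers of cellular senescence, which is described in the adipose tissue of obese animals. In these mice the p21 promoter also drives the cassettes.

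The promoter windows of Cdkn1a are shown because that promoter also drives the cassettes. Both were taken from RefSeq (build GRCm38.p6, plus strand, 5′ to 3′), and each holds the 250 bases before an annotated start. They were searched on both strands for ACATGTNNNNACATGT, a pair of p53-type core sequences, for TATAA, for GGGCGG (the core of an Sp1 site) and for CACGTG (an E-box), and the letters matched stand in capitals. No match overlapped another.
Cdkn1a upstream start, chr17:29090729-29090978: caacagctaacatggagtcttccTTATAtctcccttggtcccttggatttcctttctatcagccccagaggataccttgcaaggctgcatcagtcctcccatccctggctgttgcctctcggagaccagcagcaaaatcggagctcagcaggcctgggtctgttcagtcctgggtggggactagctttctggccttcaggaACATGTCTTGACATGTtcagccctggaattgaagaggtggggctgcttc
Cdkn1a downstream start, chr17:29093519-29093768: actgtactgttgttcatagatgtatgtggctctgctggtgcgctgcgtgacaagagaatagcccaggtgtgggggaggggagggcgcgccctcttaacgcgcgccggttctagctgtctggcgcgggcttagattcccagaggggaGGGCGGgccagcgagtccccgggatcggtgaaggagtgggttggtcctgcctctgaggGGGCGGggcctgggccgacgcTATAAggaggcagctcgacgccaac
The upstream window held the p53-type pair 49 bases before its start and TATAA, read on the minus strand, 227 bases before it. Its GC content was 54.0%. Of 32851 RefSeq windows of this length, 4 (0.0122%) held that pair, and the others belonged to the predicted genes Gm36059, Gm36743 and Gm39010. Only this exact spelling and spacing, which Cdkn1a carries, was searched, so the small count says nothing particular about Cdkn1a. It does not show how many windows hold other forms of a p53-type site. The downstream start lies 2790 bases further along the gene. Its window had a GC content of 64.8%, TATAA 25 bases before the start and GGGCGG at 104 and 46 bases before it. TATAA was present in 22.8% of all windows, GGGCGG in 32.7% and CACGTG in 6.02%. Of the 7 genes, 6 had a RefSeq window, Cdkn1c being the other, and none of those windows held CACGTG. A match describes letters only, and the counts per gene do not say which start a transcript used.

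In the GENCODE M21 annotation of mm10, the build named in the submitters' processing notes, the genes lie on 5 chromosomes. Cdkn1a spans chr17:29090976-29100727 on the plus strand with 3553 bases of exons. Cdkn1b spans chr6:134920401-134925513, plus strand, with 4552 bases of exons. Cdkn1c, an imprinted gene, spans chr7:143458339-143461050, minus strand, with 2039. Cdkn2a (chr4:89274471-89294653, 1172 bases of exons) and Cdkn2b (chr4:89306299-89311039, 1390 bases) are neighbours on the minus strand. Cdkn2c lies elsewhere on the same chromosome (chr4:109660876-109667189, minus strand, 2686 bases). Cdkn2d spans chr9:21288410-21291407, minus strand, with 1574 bases. Cdkn2a makes p16Ink4a and p19Arf from transcripts with different first exons, and 1 count per gene cannot separate them. Exons of 2 of the genes overlap an annotated gene on the opposite strand, Cdkn1a with AC167363.2 and Cdkn1c with Gm44732. Whether reads were counted by strand is not given in the sources used here, so reads of these pairs cannot be told apart.

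Libraries held 16430330 to 19486965 counts. No pair of replicates differed as little as sampling noise: the smallest ratio of chi-square to its degrees of freedom within a group was 20.5. Nothing in the labels says that the libraries came from separate animals, so p-values measure only the spread between these libraries. Crisp1, an epididymal gene, split the libraries across the groups: 8 had 641 to 14800 CPM (counts scaled to a common library size) and 4 had at most 0.529 CPM, and each group held 1 of those 4 (SD mCherry replicate 2, HFD mCherry replicate 20, HFD Tert replicate 27 and HFD TertCi replicate 31). The labelled stromal cells were checked against adipose progenitor markers, all 9 of which were detected in every library, with summed levels of 3500 to 15200 CPM. Adipocyte markers were present as well, at 227 to 491 CPM in SD mCherry and 910 to 1740 CPM in HFD mCherry. They summed to 742 to 6220 CPM in HFD Tert and 1710 to 3500 CPM in HFD TertCi. Erythrocyte markers reached 21300 CPM in HFD Tert, so the markers do not settle how pure the labelled fraction was. Macrophage markers (9 genes, none at 0) summed to 953 to 1020 CPM in the standard-diet libraries and to 1930 to 4820 CPM in HFD mCherry. They summed to 795 to 1980 CPM for HFD Tert and 970 to 1380 CPM for HFD TertCi. In such bulk samples, fewer cells of a type and less RNA per cell cannot be told apart.

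Cdkn1a was the most abundant of the 7 inhibitor transcripts in every library once counts were scaled by exon length. Its level averaged 83.1 CPM per kb over the 12 libraries (range 42.2 to 134), above Cdkn1b at 25.7 (21.9 to 32.5) and Cdkn1c at 16.8 (10.2 to 24.3). Among the Ink4 genes, Cdkn2d averaged 13.1 CPM per kb (8.04 to 19), Cdkn2c 8.05 (5.89 to 11.0), Cdkn2b 4.30 (2.41 to 6.07) and Cdkn2a 0.585 (0.189 to 1.70). Each gene was above the next in 12 of 12 libraries, apart from Cdkn1c and Cdkn2d, whose order held in 8 of 12, and Cdkn2d and Cdkn2c, in 11 of 12. The ranges over libraries did not overlap for Cdkn1a and Cdkn1b or for Cdkn2b and Cdkn2a, and overlapped for the other neighbours in the order. Cdkn1a stood at the 96.7th percentile of mean CPM among the genes tested and Cdkn2a at the 5.25th.

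**Figure D1:**
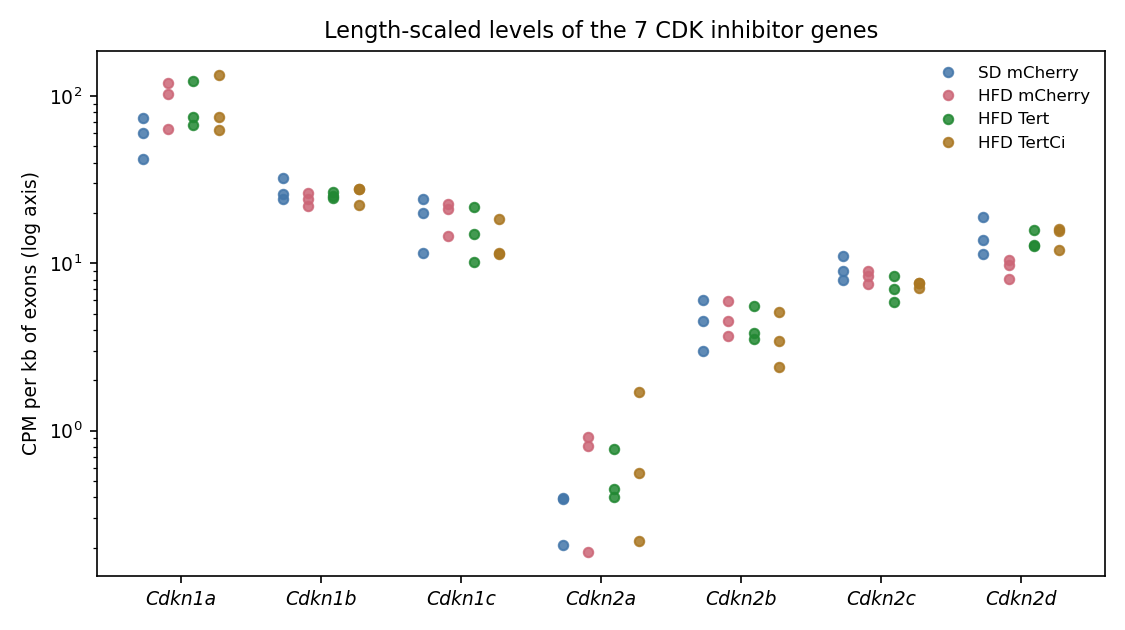
Level of each CDK inhibitor transcript in CPM per kb of exons (log axis), with 1 point per library coloured by group. Over the 12 libraries Cdkn1a averaged 83.1 and Cdkn2a 0.585. The points of neighbouring genes overlap except between Cdkn1a and Cdkn1b and between Cdkn2b and Cdkn2a.

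The genes also differed in how far their levels spread. Cdkn1b was the most even, with a coefficient of variation of CPM of 11.0% and a highest level 1.48 times its lowest. The coefficient was 16% for Cdkn2c, 23.7% for Cdkn2d, 27.6% for Cdkn2b, 30.1% for Cdkn1c and 35.1% for Cdkn1a, whose highest library was 3.18 times its lowest. For Cdkn2a it was 73.2%, on 143 counts in all 12 libraries together. Of the summed CPM per kb of the 7 genes, Cdkn1a made up 43.3% ± 7.51 (SD, n = 3) on the standard diet and 58.2% ± 5.74 in HFD mCherry. The share was 55.9% ± 6.65 with the Tert cassette and 56.2% ± 9.52 with TertCi. In SD mCherry it ran from 34.9% to 49.2%, below the 51.6% to 62.2% of HFD mCherry. It was also below the 51.3% to 63.5% of HFD Tert and overlapped the 47.9% to 66.6% of HFD TertCi, groups that differ from SD mCherry in genotype as well as diet. The share depends on the other genes of the set and was not tested. The CPM of Cdkn1a itself overlapped between the diets, where 25.5% of all genes tested did not overlap. The 3 Cip/Kip genes together made up 71.1% to 87.6% of the sum in single libraries.

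The first comparison, HFD mCherry against SD mCherry, addresses what the diet changed in mice of 1 genotype. Cdkn1a, the p53-driven inhibitor, measured 213, 261 and 150 CPM in SD mCherry 1, 2 and 3 and 226, 425 and 367 CPM in HFD mCherry 15, 17 and 20. HFD mCherry 17 and 20 were above every standard-diet library, while HFD mCherry 15 lay between SD mCherry 1 and 2, so the groups overlapped. The means were 208 ± 55.5 and 339 ± 102 CPM (SD, n = 3), and the log2 fold change was 0.71 ± 0.374 (SE; 95% interval -0.12 to 1.53; edgeR adjusted p = 0.265). Without HFD mCherry 17 the log2 fold change was 0.51, and without HFD mCherry 15 it was 0.93. None of these values passed the test.

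Cdkn2d, which encodes p19Ink4d, was the gene of the set with the smallest p in the diet comparison. It measured 21.7, 18 and 29.9 CPM in SD mCherry 1, 2 and 3 and 15.4, 16.3 and 12.7 CPM in HFD mCherry 15, 17 and 20. Every high-fat diet library was below every standard-diet library. The means were 23.2 ± 6.12 and 14.8 ± 1.89 CPM (SD, n = 3), a log2 fold change of -0.65 ± 0.238 (95% interval -1.18 to -0.13). The unadjusted p of 0.0198 did not survive adjustment over all genes (edgeR adjusted p = 0.146).

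Of the 7 inhibitors, 0 were called in the diet comparison, where 0.0479% of all genes tested were. Cdkn2d was the 1 gene of the 7 with an unadjusted p under 0.05, against 24.1% of all genes, and the 1 whose groups did not overlap, against 25.5%. Both counts are near or below the background of the whole table. The median log2 fold change of the 7 was 0.05, beside -0.08 for all genes tested.

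The other 5 genes overlapped between the diets. Cdkn1b, whose product p27 restrains Cdk2, averaged 125 ± 19.8 CPM on the standard diet and 109 ± 9.82 on the high-fat diet. Cdkn1c measured 40.9, 49.6 and 23.4 CPM in SD mCherry 1, 2 and 3 and 29.5, 45.8 and 42.8 in HFD mCherry 15, 17 and 20. SD mCherry 3 and HFD mCherry 15 were the low libraries, 1 in each group, and the log2 fold change was 0.05 ± 0.355. Cdkn2a, the senescence-linked gene at the bottom of the order, had 9, 5 and 8 counts in SD mCherry 1, 2 and 3 and 4, 18 and 16 in HFD mCherry 15, 17 and 20. Its log2 fold change of 0.94 had a 95% interval of -0.93 to 2.82 (edgeR adjusted p = 0.495). Cdkn2b, which encodes p15, averaged 6.31 ± 2.13 and 6.56 ± 1.61 CPM, and Cdkn2c, which encodes p18, 25 ± 4.16 and 22.3 ± 2.01 CPM.

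**Figure D2:**
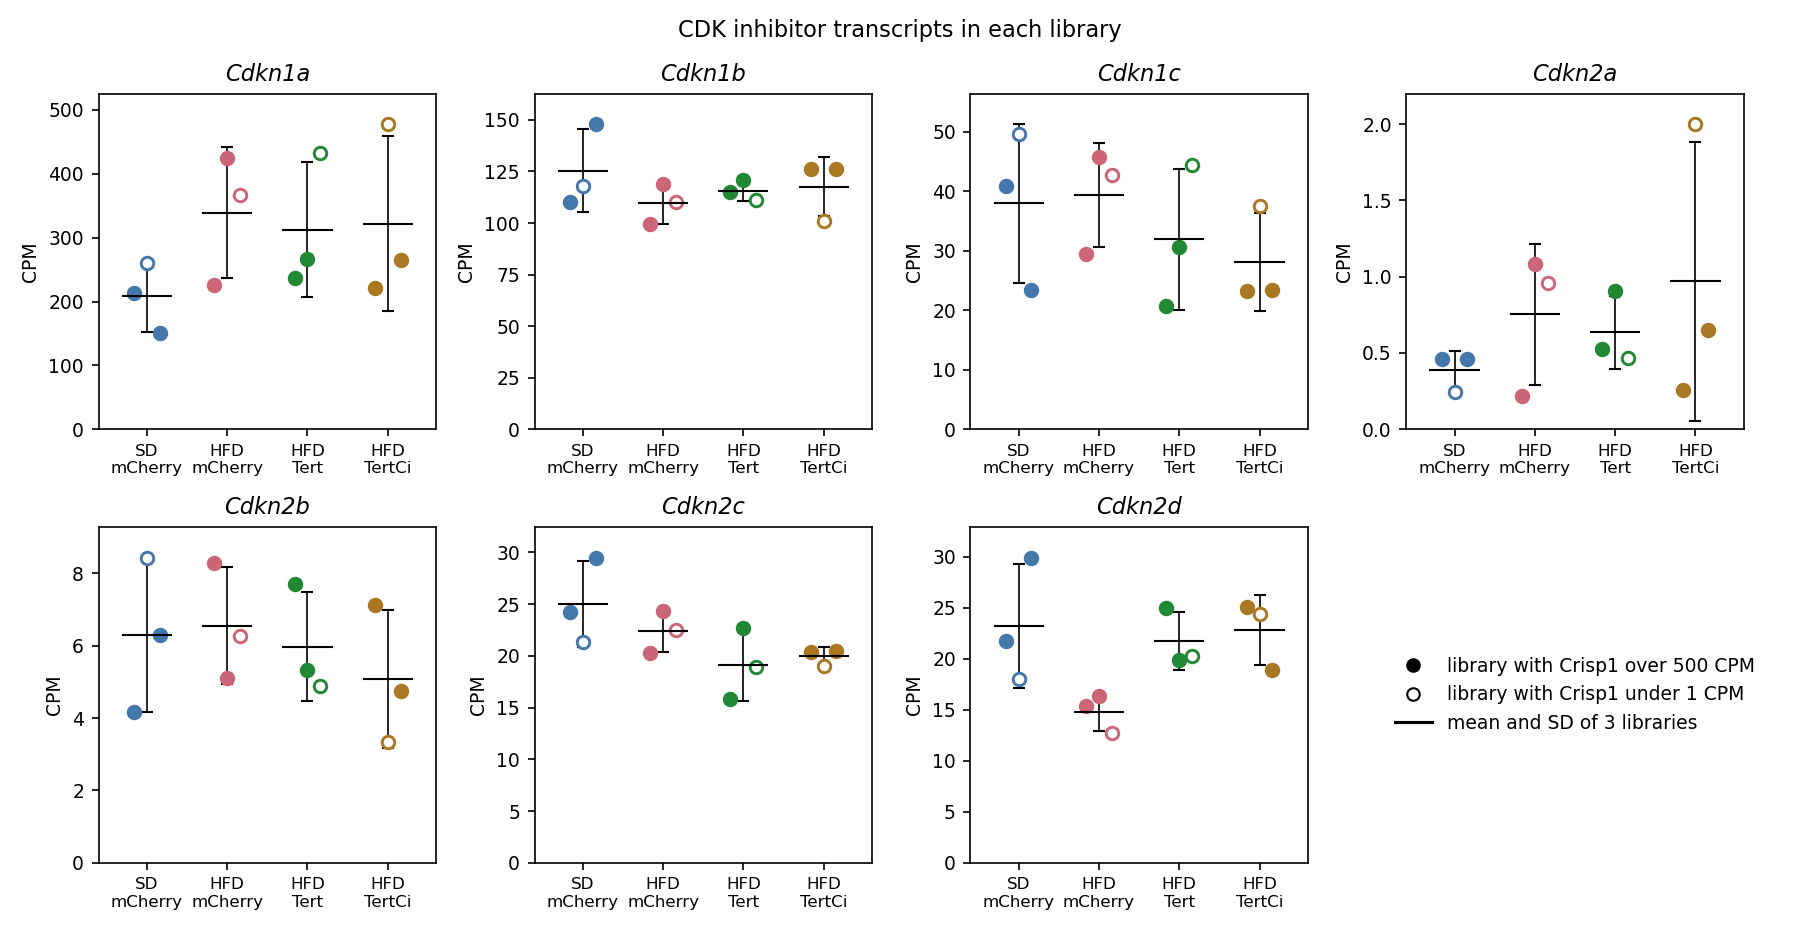
CPM of each CDK inhibitor transcript (1 panel per gene, axis from 0) by group, with 1 point per library and the mean and SD of 3 libraries. Open points are the 4 libraries with Crisp1 under 1 CPM, and in the Cdkn2d panel the HFD mCherry libraries, at 12.7 to 16.3 CPM, lie below all others.

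HFD Tert and HFD TertCi were each compared with HFD mCherry, which addresses what the active and the inactive telomerase cassettes changed on the same diet. The added feature mCherry_Tert had 0 counts in all 6 mCherry libraries, 33, 37 and 48 in HFD Tert 25, 26 and 27 and 41, 86 and 57 in HFD TertCi 30, 31 and 33. Tert itself had 8 to 78 counts in the mCherry libraries and 131 to 304 in the knock-in libraries. The counts of both features set the knock-in libraries apart from the mCherry libraries, but they overlapped between HFD Tert and HFD TertCi and do not show which of these cassettes a library held. What sequence mCherry_Tert stands for, and how reads were divided between it and Tert, is not given in the sources used here.

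Cdkn1a measured 237, 267 and 433 CPM in HFD Tert 25, 26 and 27 and 222, 478 and 265 CPM in HFD TertCi 30, 31 and 33. In each group 1 library was far above the other 2, HFD Tert 27 and HFD TertCi 31, and all 3 high-fat diet groups overlapped. The means were 312 ± 106 and 322 ± 137 CPM (SD, n = 3), beside 339 ± 102 in HFD mCherry. The log2 fold change was -0.12 ± 0.372 for HFD Tert (95% interval -0.94 to 0.70; edgeR adjusted p = 0.901). For HFD TertCi it was -0.08 ± 0.372 (95% interval -0.90 to 0.74; edgeR adjusted p = 0.942). These intervals do not show that the levels were equal: they still hold changes of 0.70 log2 units in either direction.

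Cdkn2d was higher in every library of both cassette groups than in every HFD mCherry library. It measured 25, 19.9 and 20.3 CPM in HFD Tert 25, 26 and 27 (mean 21.7 ± 2.86) and 25.1, 24.4 and 18.9 CPM in HFD TertCi 30, 31 and 33 (mean 22.8 ± 3.41). The SD mCherry mean was 23.2 CPM, and neither cassette group was tested against it. The log2 fold change was 0.56 ± 0.238 in HFD Tert (95% interval 0.03 to 1.08; unadjusted p = 0.0395, edgeR adjusted p = 0.284). In HFD TertCi it was 0.63 ± 0.238 (95% interval 0.10 to 1.15; unadjusted p = 0.0237, edgeR adjusted p = 0.273). The 3 comparisons of Cdkn2d all use the 3 HFD mCherry libraries, so they are not independent of one another. Chosen after its values were seen, the pattern of HFD mCherry below all 9 other libraries was shared by 352 genes, 2.11% of those tested.

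In each of these 2 comparisons 0 of the 7 inhibitors were called. The share over all genes was 0% for HFD Tert and 0.012% for HFD TertCi. Cdkn2d was again the 1 gene of the 7 with an unadjusted p under 0.05, where 16.4% and 14.7% of all genes had one. It was also the 1 whose groups did not overlap, beside 21.1% and 21.5% of all genes. The median log2 fold change of the 7 was -0.13 for HFD Tert and -0.08 for HFD TertCi, beside -0.05 and -0.04 for all genes.

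The intervals of the remaining genes all included 0. Cdkn1c measured 20.7, 30.6 and 44.4 CPM in HFD Tert 25, 26 and 27 and 23.3, 37.6 and 23.4 CPM in HFD TertCi 30, 31 and 33. Against HFD mCherry its log2 fold change was -0.30 (edgeR adjusted p = 0.693) and -0.49 (edgeR adjusted p = 0.543). Cdkn1b averaged 116 ± 4.96 and 118 ± 14.3 CPM, and Cdkn2c 19.1 ± 3.44 and 20 ± 0.844 CPM. Cdkn2b averaged 5.97 ± 1.52 and 5.08 ± 1.92 CPM. Cdkn2a had 9, 17 and 8 counts in HFD Tert 25, 26 and 27 and 5, 31 and 13 in HFD TertCi 30, 31 and 33. HFD TertCi 31 alone held more Cdkn2a counts than all 3 SD mCherry libraries together, and HFD TertCi 30 was within their range.

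With the 6 libraries of both Tert cassettes against HFD mCherry, 0 of 7 inhibitors were called, where 0.168% of all genes were. Cdkn2d had a log2 fold change of 0.59 ± 0.211 (95% interval 0.13 to 1.06; unadjusted p = 0.0173, edgeR adjusted p = 0.156). It was the 1 gene of the 7 with an unadjusted p under 0.05, beside 21% of all genes, and the 1 without overlap, beside 13%. For Cdkn1a the value was -0.10 ± 0.321 (95% interval -0.81 to 0.61; edgeR adjusted p = 0.888), and for Cdkn1c -0.39 ± 0.304 (edgeR adjusted p = 0.478).

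HFD Tert against HFD TertCi addresses what depends on the catalytic activity of telomerase. Here 0 of 7 inhibitors were called (0% of all genes), 0 had an unadjusted p under 0.05 (1.36% of all genes) and 0 were without overlap (5.13% of all genes). Cdkn1a had a log2 fold change of -0.04 with a 95% interval of -0.86 to 0.78, and Cdkn2d one of -0.07. The values were -0.02 for Cdkn1b, 0.18 for Cdkn1c, -0.59 for Cdkn2a, 0.23 for Cdkn2b and -0.06 for Cdkn2c, each with an edgeR adjusted p of 1. A test for any difference among the 4 groups called 0 of 7 inhibitors too, where it called 0.012% of all genes (20.2% had an unadjusted p under 0.05). Its smallest adjusted p among the 7 was 0.282, for Cdkn2d (edgeR F-test), followed by 0.504 for Cdkn2c and 0.523 for Cdkn1a.

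**Figure D3:**
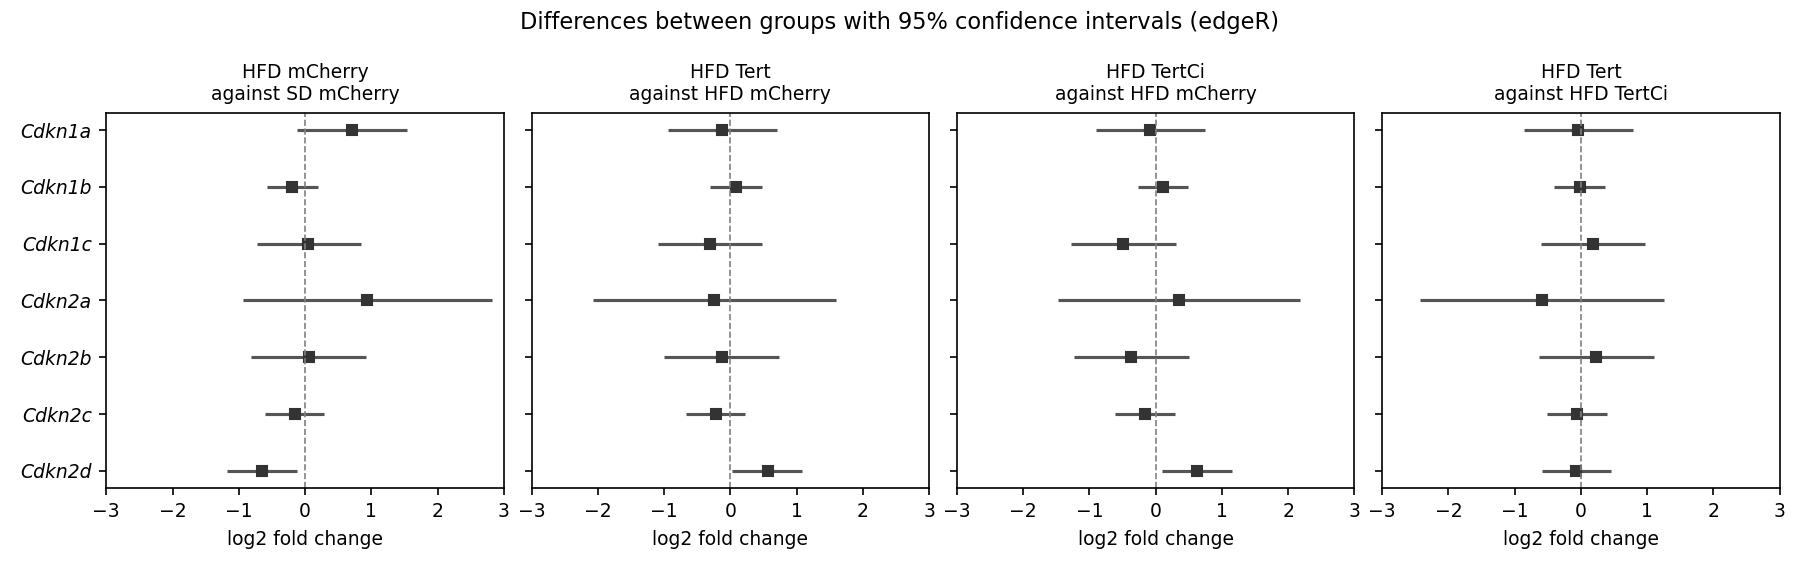
Log2 fold change of each CDK inhibitor transcript with 95% intervals from the edgeR fit. The comparison of both cassettes together against HFD mCherry is not drawn. The Cdkn2d intervals lie to 1 side of 0 in the diet comparison (-1.18 to -0.13) and against HFD mCherry in both cassette groups, before adjustment over all genes, and those of Cdkn2a are the widest.

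The inhibitors were then compared along the Crisp1 split inside the groups. In the library without Crisp1, Cdkn1a stood at 261 CPM against a mean of 181 in the other 2 of SD mCherry, and at 367 against 325 in HFD mCherry. The same values were 433 against 252 in HFD Tert and 478 against 243 in HFD TertCi. The 325 averages HFD mCherry 15 at 226 CPM and HFD mCherry 17 at 425 CPM. By the mean log2 level of 9 epididymis and epithelium markers, HFD mCherry 17 (1.75) was nearer HFD mCherry 20 (-1.22) than HFD mCherry 15 (8.92). Cdkn1a was thus highest in the library without Crisp1 in 3 of 4 groups, and Cdkn1c likewise in 3 of 4 (all but HFD mCherry). Of all genes tested, 22.4% were highest there in at least 3 of 4 groups, and Mdm2, another p53 target, was 1 of them. Cdkn1b was the highest in none of those 4 libraries and the lowest of its group in 2. Each of the other 4 inhibitors was highest there in 1 group or none and lowest in 2. Cell type markers differed between these libraries too, some upward and some downward. Endothelial markers (8 genes, none at 0) summed highest in the library with the most Cdkn1a in 4 of 4 groups. The sum was 1200 CPM for SD mCherry 2 and 3040 CPM for HFD mCherry 17, and 5000 CPM for HFD Tert 27 and 5230 CPM for HFD TertCi 31. In the same order of groups, the other libraries ran from 851 to 1040, 1660 to 2790, 2100 to 3110 and 2320 to 3160 CPM. Adipose progenitor markers summed highest in the library without Crisp1 in 4 of 4 groups, at 4570, 15200, 9890 and 9730 CPM, with HFD mCherry 17 close to its group's highest at 15000. Other markers went the opposite way. Pericyte and smooth muscle markers summed lowest in the library without Crisp1 in 4 of 4 groups, at 2750, 1790, 2870 and 4020 CPM. Skeletal muscle markers were also lowest there in 4 of 4, at 24.3, 4.54, 1.29 and 2.9 CPM. By mean log2 CPM in place of the sum, 2 of these orders changed within HFD mCherry. Pericyte and smooth muscle markers were then lower in HFD mCherry 15 (7.46) than in HFD mCherry 20 (7.52). Adipose progenitor markers were higher in HFD mCherry 17 (9.76) than in HFD mCherry 20 (9.69). The part of these cell types in the Cdkn1a values was not tested. With the mean log2 level of 9 epididymis and epithelium markers as a covariate, the diet value of Cdkn1a was 0.48 ± 0.209 (edgeR adjusted p = 0.167). In the 8 libraries with Crisp1 alone it was 0.83 (edgeR adjusted p = 0.330), and that of Cdkn2d was -0.71 (edgeR adjusted p = 0.318). Crisp1 still differed between the diets in that subset. It was 8860 and 14800 CPM in SD mCherry 1 and 3, and 2400 and 641 CPM in HFD mCherry 15 and 17.

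Because the cassettes use the p21 promoter, Cdkn1a was set against the cassette counts in the 6 knock-in libraries. Pearson's r of Cdkn1a with Tert was 0.702 (2-sided exact permutation p = 0.167, adjusted over 3 relations 0.25), and Spearman's rho was 0.371 (exact permutation p = 0.497, adjusted 0.746). For mCherry_Tert, r was 0.822 (exact permutation p = 0.0639, adjusted 0.192) and rho 0.6 (exact permutation p = 0.242, adjusted 0.725). Without HFD Tert 27 and HFD TertCi 31, the 2 libraries farthest from the median of Cdkn1a, r was 0.233 for Tert and 0.441 for mCherry_Tert. Those are also the 2 knock-in libraries without Crisp1, and the larger r rests on them. In the 6 mCherry libraries, r of Cdkn1a with Tert was -0.161 (exact permutation p = 0.842) and rho -0.0857 (exact permutation p = 0.919). There r was 0.484 without HFD mCherry 17 and 20. Groups of 3 were too small for a value within each. Tert CPM came to 2.62% to 5.76% of Cdkn1a CPM in the knock-in libraries and 0.241% to 1.87% in the mCherry libraries, without scaling for length.

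**Figure D4:**
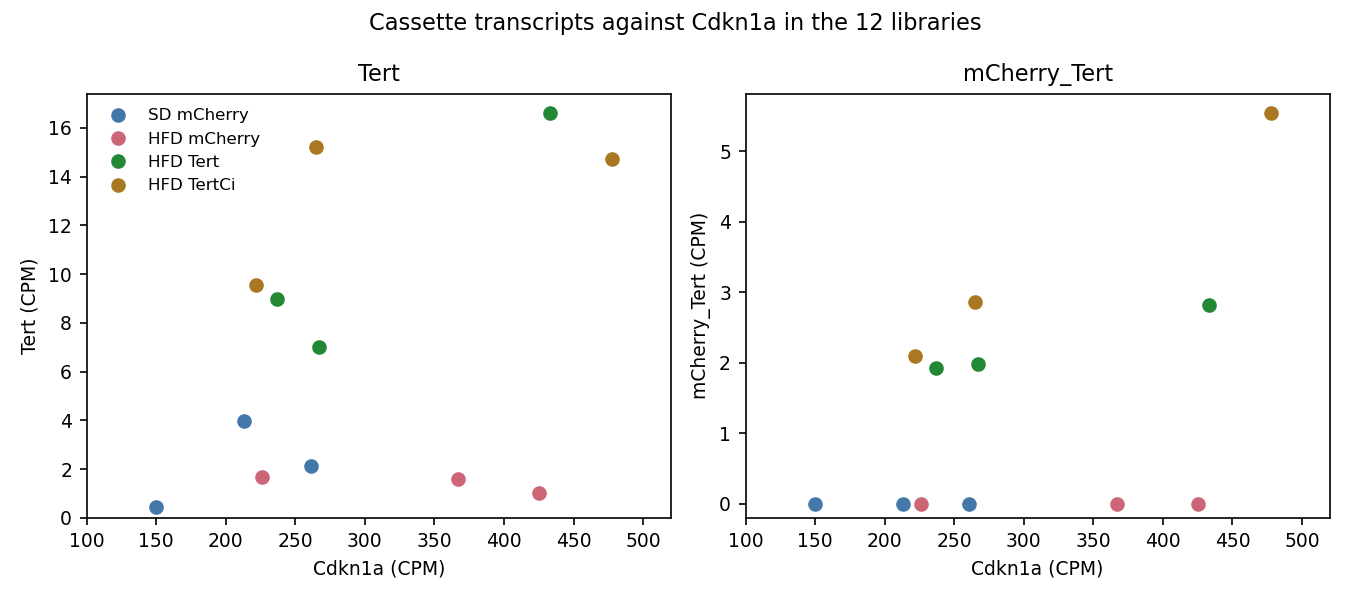
Cassette transcript CPM (Tert and mCherry_Tert, 1 panel each) against Cdkn1a CPM, with 1 point per library coloured by group. The knock-in libraries lie above the mCherry libraries, and HFD Tert 27 (433 CPM of Cdkn1a) and HFD TertCi 31 (478 CPM) stand to the right of the other knock-in libraries.

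The inhibitors did not follow 1 shared pattern over the 12 libraries. As a description, Spearman's rho was 0.73 for Cdkn1a and Cdkn2a and 0.53 for Cdkn1a and Cdkn1c. It was -0.62 for Cdkn2a and Cdkn2b, -0.60 for Cdkn1c and Cdkn2d and -0.45 for Cdkn1a and Cdkn2b. Cdkn2a had only 143 counts over the 12 libraries, so its ranks rest on differences of a few reads. Among the genes whose levels ranked most like Cdkn1a were Dock11 (rho 0.993), Daam1, Map3k8 and Mxra7 (0.986 each). Of 12356 genes that averaged 5 CPM or more, 426 had a rho above 0.9 with Cdkn1a. That number was 20 for Cdkn1c, 8 for Cdkn2a, 4 for Cdkn1b, 1 for Cdkn2c and 0 for Cdkn2b and Cdkn2d. The closest gene was Ugp2 for Cdkn1b (0.951), Fcho2 for Cdkn1c (0.944), Tnfsf15 for Cdkn2a (0.944), R3hdm4 for Cdkn2b (0.853), Cwc25 for Cdkn2c (0.909) and Nfu1 for Cdkn2d (0.881). All these values share the same libraries, including the Crisp1 split.

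The partners of the inhibitors were followed in lists of known pathway genes, none of whose members passed the test in any of these comparisons. The cassette feature mCherry_Tert, which is no pathway gene, was called with both cassettes together against HFD mCherry (edgeR adjusted p = 0.0443). For the diet comparison, the counts of these lists stand beside 24.1% of all genes with an unadjusted p under 0.05 and a median log2 fold change of -0.08 over all genes. Of 15 genes listed as CDKs and cyclins, with Pcna among them, 2 were higher and 2 lower at that p on the high-fat diet. That share was near that of all genes, and the median log2 fold change of the 15 was 0.35. Ccnd1 (cyclin D1) averaged 347 CPM on the standard diet and 117 CPM in HFD mCherry, beside 231 CPM with the Tert and 251 CPM with the TertCi cassette. Its diet log2 fold change was -1.57 ± 0.426 (edgeR adjusted p = 0.0851). Ccnd3 (cyclin D3) averaged 123, 73.7, 142 and 135 CPM in the same order, with a diet value of -0.74 ± 0.210 (edgeR adjusted p = 0.0905). Ccnd2, the other D-type cyclin and chosen after its values were seen, had a diet value of the opposite sign, 0.54 (edgeR adjusted p = 0.306). Of the kinases that Ink4 proteins bind, Cdk4 averaged 81.0 CPM in SD mCherry and 78.5 in HFD mCherry. Cdk6 averaged 8.35 and 8.22 CPM there, with a log2 fold change of -1.36 in HFD Tert against HFD mCherry (edgeR adjusted p = 0.208).

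Downstream of the kinases, 13 pocket proteins and E2F factors had a median diet log2 fold change of 0.36, with 4 higher and 2 lower at an unadjusted p under 0.05 (24.1% of all genes; median -0.08). Rb1, the retinoblastoma gene, averaged 31.1 CPM in SD mCherry and 32.3 in HFD mCherry. E2f3 had a value of 1.25 (edgeR adjusted p = 0.0880) and Tfdp2, a partner of E2F, one of -0.77 (edgeR adjusted p = 0.0848). In 15 proliferation genes driven by E2F, 3 were higher and 0 lower at that p, a share below that of all genes. Mki67, a marker of dividing cells, averaged 13.7 and 55.5 CPM (log2 fold change 2.02 ± 0.538, edgeR adjusted p = 0.0822).

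Upstream of Cdkn1a, Trp53 averaged 32.3 CPM in SD mCherry and 54.0 in HFD mCherry (log2 fold change 0.74 ± 0.258, edgeR adjusted p = 0.133). Mdm2, which restrains p53 and is itself its target, averaged 126 and 167 CPM (edgeR adjusted p = 0.481). Among 17 other p53 target genes, 3 were higher and 3 lower at an unadjusted p under 0.05 (24.1% of all genes), and the median was -0.25, beside -0.08 for all genes. Plk2 of that list averaged 102 and 383 CPM (log2 fold change 1.91, edgeR adjusted p = 0.0692). Among 21 regulators of the other inhibitors, 5 were higher and 3 lower at the same p. These included Tgfb1, whose product induces Cdkn2b, at 1.87 (edgeR adjusted p = 0.0657) and Cbx7, a Polycomb repressor of Cdkn2a, at -1.24 (edgeR adjusted p = 0.0659). Id1, a repressor of Cdkn2a transcription, had values of 2.41 in HFD Tert (edgeR adjusted p = 0.187) and 1.73 in HFD TertCi (edgeR adjusted p = 0.248) against HFD mCherry.

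Senescence-associated genes other than the inhibitors were listed as well, and 0 of 14 were called. Of the 14, 9 were higher and 2 lower at an unadjusted p under 0.05 on the high-fat diet, beside 24.1% of all genes, and their median log2 fold change was 1.26, beside -0.08 for all genes. The difference between this list and the inhibitors was not tested. The matrix metalloproteinase gene Mmp3 had a value of 3.86 and its inhibitor Timp1 one of 3.62 (edgeR adjusted p = 0.0652 for each). The list median was -0.69 in HFD Tert and -0.61 in HFD TertCi against HFD mCherry, which both use the same 3 control libraries. By sign, 3 of the 14 were higher and 11 lower in HFD Tert. Hmgb1 was 1 of those higher, at 0.62 (edgeR adjusted p = 0.213). These counts and medians take no account of the direction in which each gene is known to change in senescence. Lipid-associated macrophage markers (8 genes) moved alongside, at summed levels of 464 to 834 CPM on the standard diet and 1690 to 6460 CPM in HFD mCherry. With the Tert cassette they summed to 637 to 2450 CPM and with TertCi to 607 to 1810 CPM. Their part in the values of the list was not tested.

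Near Cdkn1a on the chromosome, 8 tested neighbours had a median diet log2 fold change of -0.13. Kctd20 had 0.74 on the high-fat diet (edgeR adjusted p = 0.128), -0.82 in HFD Tert (edgeR adjusted p = 0.213) and -0.77 in HFD TertCi (edgeR adjusted p = 0.239). Of 10 imprinted neighbours of Cdkn1c, Slc22a18 had a diet value of -1.18 (edgeR adjusted p = 0.152) and H19 one of 1.70 (edgeR adjusted p = 0.202), beside 0.05 for Cdkn1c itself.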

How the data were processed

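For each library the authors deposited raw counts of reads per gene, listed by symbol, per the file headers. The submitters' processing notes name the build mm10, Subread, SAMtools and featureCounts 1.6.4. Neither the annotation used for counting nor its strand setting is given in the sources used here. Counts were used as deposited and 0 rows lacked a gene name.

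Groups came from the labels. Genes were kept by filterByExpr, TMM factors ran from 0.854 to 1.15, and edgeR 4.0.16 (R 4.3.3) fitted all 12 libraries in a single quasi-likelihood model without covariate. Tests were 2-sided, adjusted by Benjamini-Hochberg over all 16713 genes in each comparison, and called at an adjusted p under 0.05. CPM uses the TMM-scaled library size, and CPM per kb the GENCODE M21 exon length. A gene with 0 counts could lie at up to 0.145 to 0.193 CPM (3 counts, counting error only).

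On simulated counts of the diet comparison with 200 changed genes, the fit called 0 at a log2 fold change of 1 (16436 genes tested), 79 at 2 (16423 tested) and 160 at 4 (16468 tested).

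The members and lists were chosen with earlier results of these data known. Text names all 7 inhibitors, fixed partners (Mdm2, Trp53, Rb1, Ccnd1, Cdk4, Cdk6), called genes, the 2 smallest p-values of each list and comparison, and the genes closest in rank (Spearman). Not all genes that met the rule are described, and 1 is not reported here. The relation of Cdkn1a with the cassette was tested by exact permutation and was added after the data were seen. Alternatives used DESeq2 1.42.0, limma-voom 3.58.1, other scaling, filters and library subsets.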

Additional observations from a re-analysis of the deposited data

How the results depend on the processing

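No inhibitor was called under any alternative run (DESeq2, limma-voom, DESeq2-type size factors, library size only, no filter, the epididymis and epithelium covariate, only the libraries compared, each library left out, and the 8 libraries with Crisp1, the last chosen after seeing the data). Of 699 alternative log2 fold changes, 655 kept their direction and 44 did not, and the causes were not tested. Many of the 699 left out a library of a group outside the comparison, which could hardly change the value. The count of 655 therefore overstates how firm the directions were. Cdkn2d adjusted p-values ran from 0.0644 (DESeq2) to 0.441 for diet, 0.177 to 0.598 for HFD Tert, 0.145 to 0.652 for HFD TertCi and 0.0708 to 0.466 for both cassettes together. For Cdkn1a and diet, log2 fold changes ran from 0.46 to 0.93. For diet, Cdkn2a had no adjusted p with DESeq2 and no result with only the libraries compared, so it could not be called in those runs. Over all genes, 8 were called for diet, 0 for HFD Tert, 2 for HFD TertCi and 28 for both cassettes; DESeq2 called 2069, 847, 684 and 1543, the covariate fit 1302, 587, 344 and 1175, and limma-voom 0, 0, 2 and 12.

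Direction changed with library size only for Cdkn1c in diet (-0.19), Cdkn2b in diet (-0.11), Cdkn1a in HFD TertCi (0.03) and Cdkn1a in both cassettes together (0.01). It changed with the covariate for Cdkn1c in diet (-0.12), Cdkn2a in HFD Tert (0.01) and Cdkn1a in HFD TertCi (0.02), with limma-voom for Cdkn2a in HFD Tert (0.01), and with only the libraries compared for Cdkn1a in HFD TertCi (0.01). In the 8 libraries with Crisp1 it changed for Cdkn2a in HFD Tert (0.15), HFD TertCi (-0.51), HFD Tert against HFD TertCi (0.66) and both cassettes (-0.18), and in HFD Tert against HFD TertCi for Cdkn1a (0.05) and Cdkn2d (0.03).

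Leaving out each library in turn gave ranges that crossed 0 as follows. For diet they were -0.20 to 0.29 for Cdkn1c and -0.17 to 0.32 for Cdkn2b. For HFD Tert they were -0.43 to 0.07 for Cdkn1a, -0.68 to 0.11 for Cdkn2a and -0.36 to 0.07 for Cdkn2b. For HFD TertCi they were -0.48 to 0.13 for Cdkn1a and -0.72 to 0.81 for Cdkn2a. For HFD Tert against HFD TertCi they were -0.35 to 0.36 for Cdkn1a, -0.12 to 0.03 for Cdkn1b, -0.13 to 0.45 for Cdkn1c, -1.05 to 0.48 for Cdkn2a, -0.21 to 0.06 for Cdkn2c and -0.19 to 0.01 for Cdkn2d. For both cassettes they were -0.32 to 0.10 for Cdkn1a and -0.48 to 0.41 for Cdkn2a. No paired analysis was possible because no replicate number occurs in more than 1 group. The simulated log2 fold change of 1 was not called. That simulation changed 200 genes and left all others unchanged, while here 24.1% of all genes had an unadjusted edgeR p under 0.05 for diet. Its changed genes were drawn at random, so it sets no limit for Cdkn1a or Cdkn2d.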
